A study of Homo sapiens with 5 samples.

Results

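Retinoic acid binding proteins, the enzymes that make and clear retinoic acid, and the retinoic acid receptors were followed in HEK293, an established human line of embryonic kidney origin. The 9 genes are CRABP1, CRABP2, FABP5, RARA, RARB, RARG, RXRA, ALDH1A2 and CYP26A1. They were chosen by name as the proteins around CRABP2, and CRABP2 was selected on its measured rise on the same arrays, so the comparison between the groups is given for these genes as a description, with no test. The annotation used here gave 20 probe sets to 8 of the 9 genes, of 54613 probe sets for transcripts on the array. CRABP1 had no probe set in it and was not analysed here. Of the 20 probe sets, 14 had a signal of at least 100 on at least 2 arrays and entered the fit, and the other 6 are given by their signals only.

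The arrays labelled PRL-1 (2 arrays, replicates 1 and 2) held RNA of a HEK293 line that stably carries a PRL-1 plasmid. PRL-1 is a small phosphatase of the regenerating liver family whose gene is PTP4A1. The arrays labelled vector (3 arrays, replicates 1, 2 and 3) held RNA of a line with the empty pcDNA4 plasmid. Each group is 1 stable transfectant line, so what the transgene did and what else sets the 2 lines apart cannot be told apart, and the spread between replicates is that between cultures of a line. Both lines grew in DMEM with fetal bovine serum, penicillin and streptomycin, and the labels name no retinoid treatment. Another PRL-1 array was left out by the authors, because qRT-PCR of its sample showed no difference in PRL-1 from the controls, and was not analysed here.

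The gene that was introduced is the first check of the labels. The brightest PTP4A1 probe set read 7913 and 7239 on the arrays labelled PRL-1, against 7463, 7533 and 6807 on the vector arrays, and the groups overlapped. The log2 difference of that probe set was 0.06, with a 95% interval of -0.19 to 0.31. Over the 4 tested PTP4A1 probe sets the log2 difference ran between 0.06 and 0.15, with limma adjusted p between 0.737 and 0.892. In 1 of the 4 the groups were apart, with 3270 and 2837 on the arrays labelled PRL-1, against 2750, 2794 and 2825 on the vector arrays. The line was established in earlier work as one with raised PRL-1 transcript and protein. These probe sets do not show a rise beyond the spread between replicates, and whether they lie in the transfected sequence was not examined. Vector replicate 3 stood somewhat apart, with correlations of log2 signals of 0.938 to 0.947 with the other arrays, against 0.954 to 0.964 among the others. Of the HEK293 marker genes, VIM, KRT8, KRT18, PAX2 and CDH2 were measured, while both NEFM probe sets were under 100 on every array. No marker probe set of HEK293 cells, fibroblasts or blood was called. In 5 of the 8 tested HEK293 marker probe sets the groups were apart, 2 with PRL-1 higher and 3 with PRL-1 lower. Over all tested probe sets they were apart in 28.9%, 12.8% with PRL-1 higher and 16.1% with PRL-1 lower. KRT8, a simple epithelial keratin, read 2141 and 2116 on the arrays labelled PRL-1, against 998.8, 867 and 1583 on the vector arrays, at a log2 difference of 0.94 and a limma adjusted p of 0.257. The brightest probe set of VIM, the intermediate filament vimentin, lay at -0.53 (adjusted p 0.314), and PAX2 206228_at, of a kidney transcription factor, at -0.75 (0.341). The other tested PAX2 probe set (206229_x_at) overlapped, at -0.13. The part of these marker differences in the results that follow was not tested. All 8 tested fibroblast and all 4 tested blood marker probe sets overlapped. Of the blood markers, PTPRC was under 100 in all its probe sets on all 5 arrays, while CD3E (205456_at) read between 168.7 and 266.7. The HBB probe sets disagreed over the 5 arrays. HBB 217232_x_at read between 394.7 and 719.1, 1562981_at and 211696_x_at between 173 and 340.6, and 209116_x_at between 9.64 and 31.15.

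Retinoic acid is made from vitamin A in a pair of steps, in which retinol is oxidized to retinal and retinal to retinoic acid. Inside the cell it is carried by small binding proteins. CRABP2 is known to hand retinoic acid to the retinoic acid receptors in the nucleus, FABP5 can carry it, like long-chain fatty acids, to PPAR delta, and CRABP1 is linked to its breakdown. The receptors RAR alpha, beta and gamma bind DNA as partners of RXR at direct repeats of a short half-site, and RARB and CYP26A1 are classical targets that rise when the pathway is active.

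Direct repeats found in promoters of those 2 targets are shown because the receptors listed here are known to bind elements of this kind. They are in RefSeq promoters of GRCh38.p14, which run from 250 bases before to 50 bases after the annotated start. Capitals mark the half-sites (A or G, then G, G or T, T, C, A, searched on both strands), with 5 bases between them.
RARB, chr3:25428204-25428232, plus strand: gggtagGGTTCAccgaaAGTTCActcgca
CYP26A1, chr10:93073797-93073825, plus strand, with the element on the minus strand: taaagaTGAACTttgggTGAACTaattgt
In RARB the element began 53 bases before the annotated start and in CYP26A1 it began 90 bases before it. A direct repeat spaced by 5 bases was found in 31 of 35116 promoter windows, which is 0.0883%. The 9 genes had 16 windows, none of them of FABP5, so the FABP5 promoter was not searched. Of the 16 windows, 2 held a direct repeat spaced by 5 bases, those of RARB and CYP26A1. Direct repeats spaced by 1 base (0.131% of all windows) or by 2 bases (0.0399%) were in none of the 16.

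The CRABP2 promoter is shown because CRABP2 had the highest difference among these genes. Its 250 bases before the start, read 5′ to 3′ on the minus strand of chr1:156705785-156706034, held a single half-site (in capitals), 249 bases before the start, and none of the 3 direct repeats.
CRABP2: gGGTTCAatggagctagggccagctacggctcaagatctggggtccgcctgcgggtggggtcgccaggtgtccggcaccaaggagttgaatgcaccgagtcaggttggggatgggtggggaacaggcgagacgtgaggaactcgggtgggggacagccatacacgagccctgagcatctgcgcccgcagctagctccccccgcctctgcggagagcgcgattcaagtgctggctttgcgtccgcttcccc
A match or its absence describes only the letters in this window. With the half-site written as AGGTCA alone, RARA and RARB windows held at least 1, as did 13.8% of all windows. None of the 16 windows searched, which include none of FABP5, held its direct repeat spaced by 5 bases.

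The RNA signals of the carriers CRABP2 and FABP5 differed in opposite directions, and delivery of retinoic acid to receptors was not measured. CRABP2 (202575_at) read 1051 and 996.9 on the arrays labelled PRL-1, against 235.7, 376.2 and 301.9 on the vector arrays. Both PRL-1 signals lay far above all 3 vector signals, and the vector arrays differed among themselves more than the PRL-1 arrays did. The signal averaged 1024 ± 38.2 in HEK293-PRL-1 (SD, n = 2) and 304.6 ± 70.3 in HEK293-vector (SD, n = 3), which is 3.42-fold higher on the log2 scale of the fit. The log2 difference (PRL-1 minus vector) was 1.77 with an SE of 0.21 and a 95% interval of 1.30 to 2.24. Its rank was 66, counted from the highest difference, among the 33818 tested probe sets. In bulk RNA, more cells that express a gene and more RNA per cell cannot be told apart.

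FABP5 (202345_s_at), the fatty acid binding protein that can also carry retinoic acid, read 6825 and 6127 on the arrays labelled PRL-1, against 10940, 11190 and 11290 on the vector arrays. The 3 vector signals lay close together and both PRL-1 signals lay below them. Means were 6476 ± 493 in HEK293-PRL-1 (SD, n = 2) and 11143 ± 180 in HEK293-vector (SD, n = 3), or 1.72-fold lower in HEK293-PRL-1. The log2 difference was -0.78 with an SE of 0.11 and a 95% interval of -1.03 to -0.54. The suffix of this probe set marks probes that can match several transcripts, and FABP5 has processed copies elsewhere in the genome, so its signal may include them. CRABP2 and FABP5 were each read by 1 probe set, and no second probe set of either gene was available as a check.

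By the rule applied to all probe sets, a limma adjusted p of 0.05 or less, 1 member probe set counted as higher (CRABP2) and 1 as lower (FABP5) of the 14 tested. Over all 33818 tested probe sets 0.192% were called, 0.0591% higher and 0.133% lower in PRL-1. Since CRABP2 was selected on its rise on these arrays and the other genes with results of these arrays known, nothing is read from this count. Neither call was kept when either PRL-1 array was left out, which left 1 array in that group, without the intensity trend or by the methods' t-test. In 4 separate alternatives FABP5 also lost its call, namely without vector replicate 1, without vector replicate 2, with no filter on low signals, and with each array centred on its median.

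**Figure D1:**
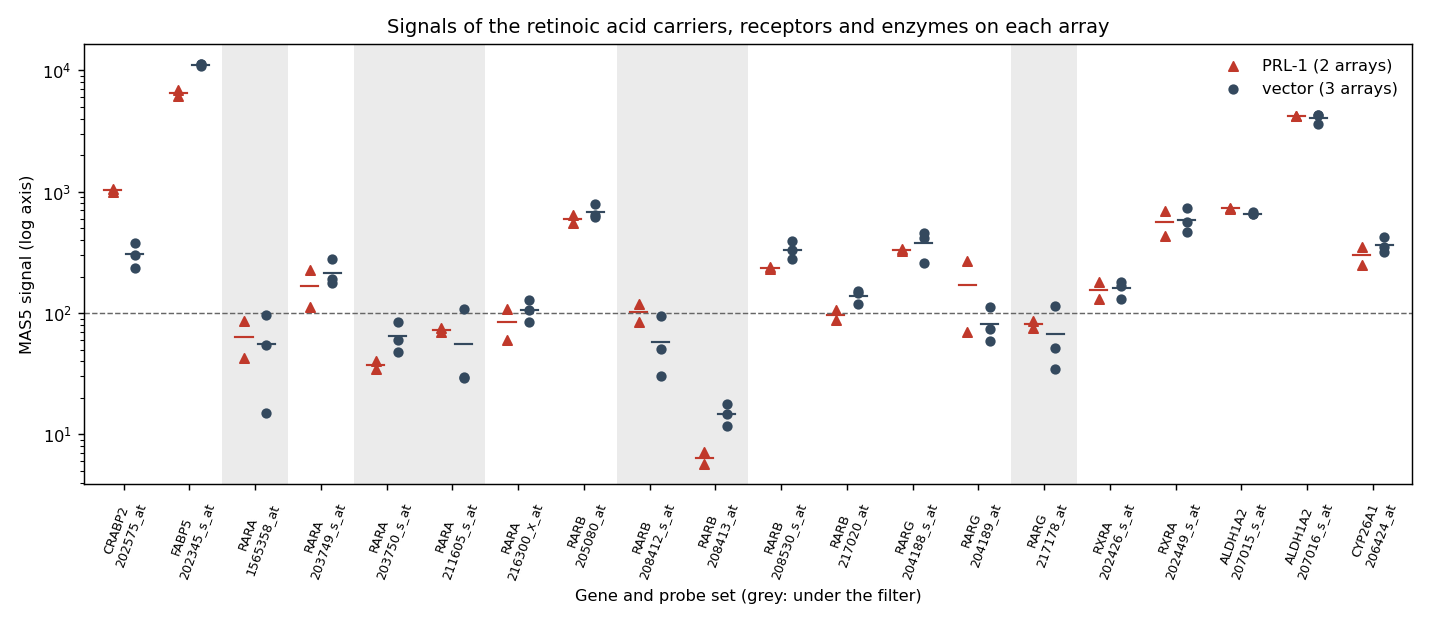
MAS5 signal (log axis) of all 20 probe sets of the 8 genes on each array. The arrays labelled PRL-1 are left of the vector arrays, with bars at the group means. Grey bands mark the 6 probe sets that missed the filter, and the dashed line is the floor of 100. The CRABP2 points at 1051 and 996.9 sit above all vector points, the FABP5 points at 6825 and 6127 below all of them, and most other probe sets overlap.

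The enzymes at either end of the life of retinoic acid showed small differences. ALDH1A2, the retinaldehyde dehydrogenase that makes retinoic acid, was detected by 2 probe sets. One of them (207016_s_at) read 4239 and 4208 on the arrays labelled PRL-1, against 4272, 4327 and 3618 on the vector arrays. These groups overlapped, with vector replicate 3 the lowest array, and the log2 difference was 0.06 with a 95% interval of -0.21 to 0.33. The other (207015_s_at) read 738.4 and 724.7 on the arrays labelled PRL-1, against 654.3, 674.5 and 649.3 on the vector arrays. Both PRL-1 signals lay above the vector signals by a small margin, at a log2 difference of 0.15 and an interval of -0.15 to 0.45.

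CYP26A1, the cytochrome P450 that clears retinoic acid and is itself switched on by it, read 250.3 and 348.6 on the arrays labelled PRL-1, against 317.3, 423.6 and 347.1 on the vector arrays. The groups overlapped, because PRL-1 replicate 2 lay among the vector signals. The log2 difference was -0.29, with an interval of -0.78 to 0.21 that reaches from a lower to a slightly higher level.

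Among the receptors, RARB was lower on the arrays labelled PRL-1 by point estimate in all 3 tested probe sets, and none was called. RARB is the receptor gene whose own promoter holds the element shown above. Its brightest probe set (205080_at) read 547.5 and 641.6 on the arrays labelled PRL-1, against 640.8, 617.1 and 784.7 on the vector arrays. These groups overlapped, at a log2 difference of -0.19 and an interval of -0.56 to 0.18. A second probe set (208530_s_at) read 232.4 and 238.5 on the arrays labelled PRL-1, against 279.9, 330.3 and 390.9 on the vector arrays. Here the groups were apart, at a log2 difference of -0.49 and an interval of -0.96 to -0.02. The third (217020_at) read 86.9 and 105.0 on the arrays labelled PRL-1, against 151.3, 118.2 and 146.3 on the vector arrays, near the floor of 100, at a log2 difference of -0.53 and an interval of -1.34 to 0.28. These probe sets read 1 gene on the same arrays and are not separate evidence.

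RARA, the most widely expressed of the retinoic acid receptors, was dim. Its brighter tested probe set (203749_s_at) read 224.2 and 111.5 on the arrays labelled PRL-1, against 279.1, 176.5 and 190.1 on the vector arrays. The PRL-1 arrays lay on either side of vector replicates 2 and 3, and the log2 difference of -0.41 had an interval of -1.23 to 0.40. The other (216300_x_at) read 59.99 and 108.6 on the arrays labelled PRL-1, against 105.7, 127.0 and 84.4 on the vector arrays, which straddles the floor.

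The probe sets of RARG, the receptor best known from skin, disagreed. One (204188_s_at) read 338.8 and 323.0 on the arrays labelled PRL-1, against 413.5, 256.2 and 454.2 on the vector arrays, at a log2 difference of -0.14 and an interval of -0.72 to 0.44. The other (204189_at) read 70.3 and 267.7 on the arrays labelled PRL-1, against 58.7, 74.6 and 112.6 on the vector arrays. Its log2 difference of 0.80, with an interval of -0.62 to 2.21, came from PRL-1 replicate 2, since replicate 1 lay among the vector signals.

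RXRA, the partner that the retinoic acid receptors share with several other nuclear receptors, overlapped between the groups in both probe sets. The brighter one (202449_s_at) read 688.4 and 429.4 on the arrays labelled PRL-1, against 738.9, 468.8 and 562.1 on the vector arrays, at a log2 difference of -0.09 and an interval of -0.66 to 0.47. The other (202426_s_at) read 178.7 and 130.3 on the arrays labelled PRL-1, against 130.3, 181.4 and 166.8 on the vector arrays, at a log2 difference of -0.05 and an interval of -0.75 to 0.65. For the receptors and the 2 enzymes, changes of the size seen for CRABP2 lie outside every interval except that of RARG 204189_at.

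The 6 member probe sets that missed the filter belonged to RARA (3), RARB (2) and RARG (1). Their highest signal on the arrays labelled PRL-1 was 118.9, for RARB 208412_s_at on replicate 2, and on the vector arrays it was 114.7, for RARG 217178_at on replicate 1. Over the 14 tested probe sets, 2 were apart with PRL-1 higher (CRABP2 and ALDH1A2 207015_s_at) and 3 with PRL-1 lower (FABP5, RARB 208530_s_at and RARB 217020_at). The groups did not overlap in 28.9% of all tested probe sets, 12.8% with PRL-1 higher and 16.1% with PRL-1 lower. With the probe set of highest mean log2 signal standing for each gene, 2 of the 8 genes lay above 0, CRABP2 and ALDH1A2. The median log2 difference over the 8 genes was -0.16, against -0.03 over all 14546 measured genes.

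**Figure D2:**
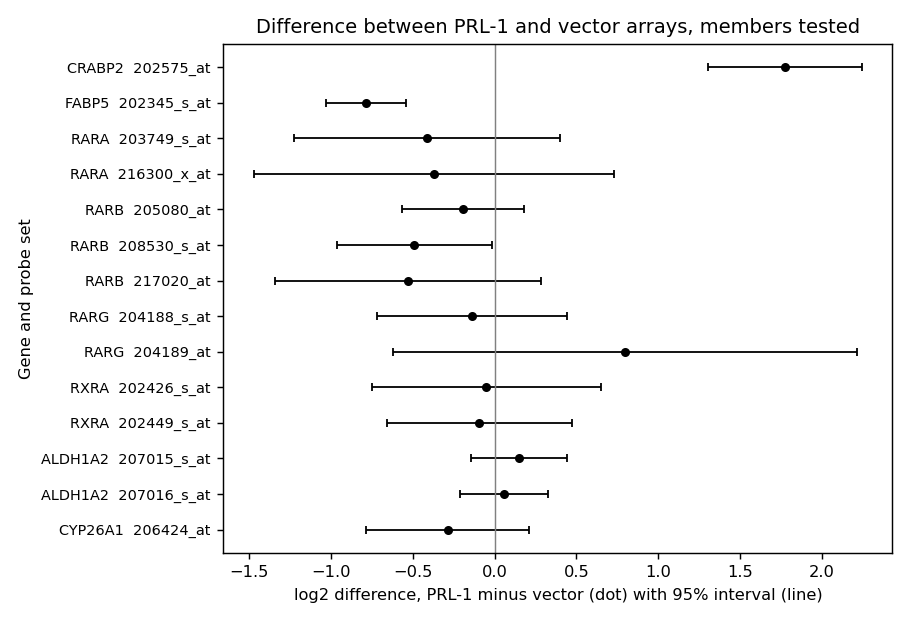
Log2 difference (PRL-1 minus vector) of the 14 tested member probe sets, as points with 95% intervals from the limma fit and a line at 0. CRABP2, which was selected for its rise, is drawn at 1.77 and FABP5 at -0.78, and the other 12 points lie between -0.53 and 0.80.

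The rest of the retinoid pathway was read from lists of 97 other genes, of which 79 had probe sets in the annotation used and 56 had at least 1 tested probe set. Of their 119 tested probe sets none was called in either direction, and the smallest adjusted p in the limma fit was 0.298. At an unadjusted p under 0.05 there were 10 of the 119, against 9.72% of all tested probe sets. The groups were apart in 13 of the 119 with PRL-1 higher and in 22 with PRL-1 lower, near the shares over all tested probe sets of 12.8% and 16.1%. The genes named next had the smallest adjusted p in their lists, and none of them passed the test. Each value is from the gene's probe set of lowest adjusted p, which need not be its brightest.

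Retinol handling upstream of ALDH1A2 was led by RDH10, the dehydrogenase that oxidizes retinol to retinal in the embryo. RDH10 (227467_at) read 1021 and 1127 on the arrays labelled PRL-1, against 795.2, 768.5 and 784.4 on the vector arrays. Both PRL-1 signals lay above the vector signals, at a log2 difference of 0.45 with an SE of 0.13 and a limma adjusted p of 0.298. Its other 2 tested probe sets had log2 differences of 0.55 and 0.27, with the groups apart the same way. Of the other oxidoreductases, ADH4 had a log2 difference of -0.84 (adjusted p 0.457), RDH13 of 0.34 (0.518) and DHRS9 of -0.84 (0.637). Other tested probe sets of RDH13 lay between -0.14 and 0.17. Over the 22 tested probe sets of 11 such genes, 9 lay above 0 and 13 below.

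Of the genes for retinol uptake and storage, LRAT, which esterifies retinol for storage, read 16.7 and 60.2 on the arrays labelled PRL-1, against 62.3, 122.9 and 117 on the vector arrays, most of them near or under the floor. Its adjusted p in the limma fit was 0.57, the smallest of that list. STRA6, the membrane receptor for retinol binding protein, had a log2 difference of 0.31 (adjusted p 0.719). Its signal was 251.2 on PRL-1 replicate 1, among the vector signals, and 416.1 on PRL-1 replicate 2. The other tested STRA6 probe set (1569335_a_at) lay at 0.01. TTR, a plasma carrier, lay at 0.31 (0.797) and RBP7, a cellular retinol binding protein, at -0.14 (0.782). The groups overlapped in STRA6, TTR and RBP7. Beside CYP26A1, its relative CYP26B1 read 165.1 and 182.4 on the arrays labelled PRL-1, against 126.1, 137.6 and 87.2 on the vector arrays. These groups were apart, at a log2 difference of 0.60 and an adjusted p of 0.618, while ALDH1A3 overlapped at -0.15 (0.893).

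Among the other nuclear receptors that pair with RXR, the vitamin D receptor VDR had probe sets that disagreed. VDR 213692_s_at read 84.7 and 128.3 on the arrays labelled PRL-1, against 235.4, 179.7 and 187.6 on the vector arrays, at a log2 difference of -0.94 and a limma adjusted p of 0.406. Its other 3 tested probe sets lay between 0.10 and 0.35. The thyroid hormone receptors THRB and THRA lay lower by point estimate, at -0.41 (adjusted p 0.521) and -0.49 (0.582), and RXRB, a sister of RXRA, lay at 0.58 (0.654). The other 2 tested RXRB probe sets lay at -0.06 and 0.05, while all 6 tested probe sets of THRA and THRB were below 0. The median over 10 measured genes of this list was 0.04.

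Of the coregulators that receptors recruit, TBL1XR1, a corepressor exchange factor, read 1244 and 1157 in its leading probe set (222633_at) on the arrays labelled PRL-1, against 925.8, 941.6 and 870.9 on the vector arrays. The groups were apart, at a log2 difference of 0.39 and a limma adjusted p of 0.358. Of its other tested probe sets, 221428_s_at, 223013_at and 235890_at lay at 0.19, 0.23 and 0.39, with the groups apart the same way. TBL1XR1 222634_s_at lay at -0.07, with the groups apart the other way. PRAME, known as a repressor of retinoic acid receptor signaling, lay at -0.23 (limma adjusted p 0.629), and MED1 and TBL1X at -0.20 (0.636) and -0.21 (0.717). Other tested MED1 probe sets lay between 0.02 and 0.09. Those of TBL1X lay at -0.27, -0.135, -0.02 and 0.19. The median over 12 measured genes was 0.05.

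Listed genes known to be induced by retinoic acid, members aside, were mostly a little lower on the arrays labelled PRL-1 by point estimate. None of these listed genes was called. The list was drawn up with earlier results of these data known, so nothing is read from its direction. RET, a receptor tyrosine kinase, read 40.8 and 62.2 in probe set 215771_x_at on the arrays labelled PRL-1, against 139.8, 136.9 and 132.5 on the vector arrays, at an adjusted p of 0.374 in the limma fit. Its brighter probe set 205879_x_at read 300.8 and 351.9 on the arrays labelled PRL-1, against 382, 541.7 and 658.2 on the vector arrays, and the groups were apart in both. HOXD4 (205522_at), a homeobox gene, read 346.5 and 347.5 on the arrays labelled PRL-1, against 441.8, 589.1 and 486.5 on the vector arrays, at a log2 difference of -0.53 and an adjusted p of 0.392. Its other tested probe set overlapped, at a log2 difference of -0.05. The homeobox genes MEIS1 and HOXB1 lay at -0.31 (adjusted p 0.525) and -1.24 (0.685), and HOXB1 was near the floor. A second tested probe set of each gene lay at 0.05 for MEIS1 and -0.09 for HOXB1.

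Of the 19 target genes listed, 13 had probe sets in the annotation used and 10 were measured. Over the 10 measured target genes the median log2 difference was -0.17, between the quartiles of all measured genes (-0.23 and 0.14). Of the 10, 1 lay above 0, while over all measured genes 44.8% lay above 0. DHRS3 and TGM2, which were picked after their values were seen because they are widely used readouts of the pathway, lay at -0.06 and -0.07, with limma adjusted p of 0.905 and 0.962. DHRS3 read 704 and 699.7 on the arrays labelled PRL-1, against 745.3, 718.5 and 735.5 on the vector arrays.

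The targets of PPAR delta, the receptor to which FABP5 can carry ligands, had no call. PLIN2, a lipid droplet coat protein, read 16.3 and 29.1 in probe set 209122_at on the arrays labelled PRL-1, against 117.5, 107.5 and 126.1 on the vector arrays, at a limma adjusted p of 0.33. In probe set 215895_x_at it read 238.2 and 205.2 on the arrays labelled PRL-1, against 74.4, 202.9 and 245.2 on the vector arrays, so its 2 probe sets pointed opposite ways. PDPK1 lay at 0.28 (adjusted p 0.601), PDK4 at -0.24 (0.761) and ACADVL at -0.13 (0.846), and the median over 5 measured genes was 0.04. Of the other fatty acid binding proteins, FABP7 was the one with a tested probe set, at -0.40 (adjusted p 0.832), and 14 probe sets of that list missed the filter.

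**Figure D3:**
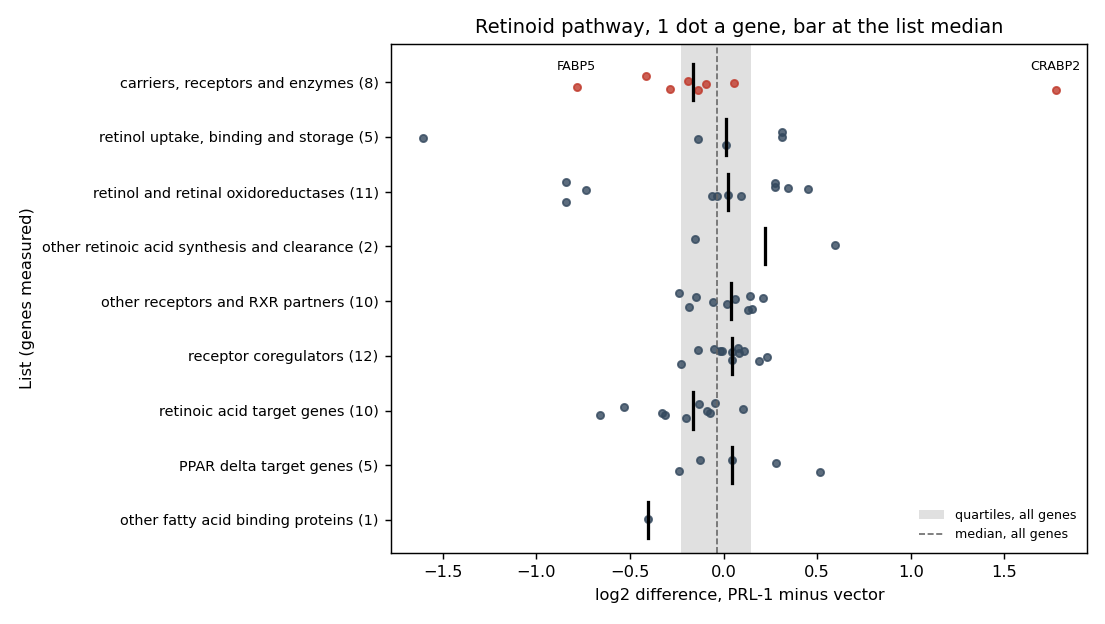
Log2 difference (PRL-1 minus vector) of each measured gene, by list, with 1 probe set standing for a gene, a bar at each list's median and a band between the quartiles of all genes. CRABP2 and FABP5 stand at the ends of the member row, at 1.77 and -0.78, and the target genes have a median of -0.17 with 1 of 10 above 0.

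The genes whose signals ran most like those of CRABP2 over the 5 arrays were RAB9B, LOC100996385, MIDN, LOC105376166 and TENM1. Likeness was the root mean square distance between log2 signals centred on their mean, over 14545 other genes, and the distances were 0.12, 0.19, 0.22, 0.22 and 0.24. Because the distance uses the same 5 arrays, such genes are high on both PRL-1 arrays by construction, and none of the 5 was called. MIDN, which encodes midnolin, read 1534 and 1759 on the arrays labelled PRL-1, against 425.6, 776.1 and 688.3 on the vector arrays. Like CRABP2 it was lowest on vector replicate 1 and its groups were apart. TENM1, a teneurin, read 433.4 and 385.6 on the arrays labelled PRL-1, against 76.4, 123.6 and 154.6 on the vector arrays. RAB9B and both LOC genes were under 100 on every vector array (27.8 to 38.5) and between 105.3 and 123.7 on the arrays labelled PRL-1. These 3 passed the filter through the PRL-1 arrays alone, so their likeness rests on log2 values near background and on that filter. Without vector replicate 3 the 5 genes ranked 2, 21, 14, 25 and 9 in likeness, in the order given.

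**Figure D4:**
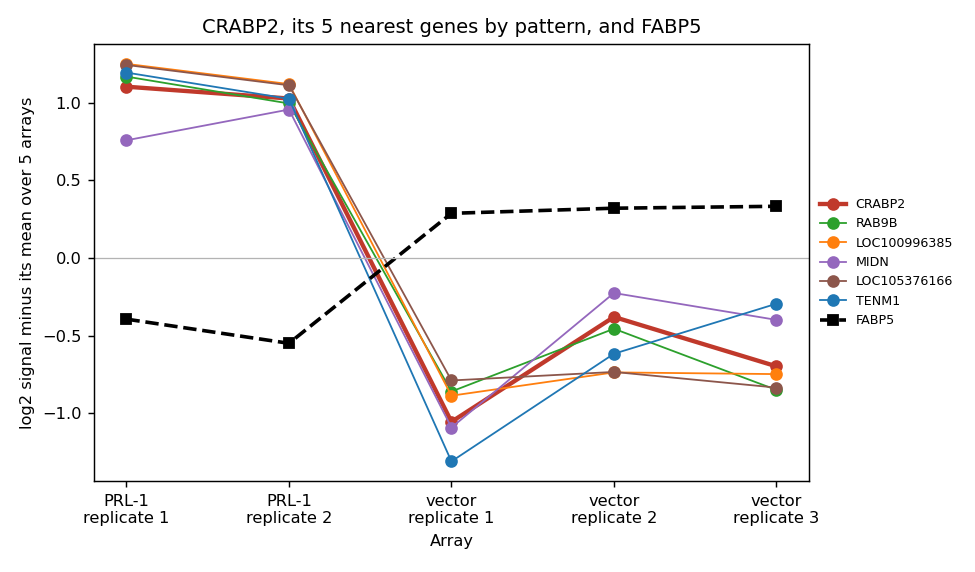
Log2 signal centred on the mean of the 5 arrays, for CRABP2 (thick line), the 5 genes nearest to it and, for contrast, FABP5 (dashed), with the arrays labelled PRL-1 on the left. CRABP2 lies at 1.10 and 1.03 on the PRL-1 arrays and at -1.05, -0.38 and -0.70 on the vector arrays, the 5 nearest genes follow it at distances of 0.12 to 0.24, and FABP5 runs the other way.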

How the data were processed

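RNA of HEK293-PRL-1 (2 arrays) and HEK293-vector (3 arrays) was measured on the Affymetrix U133 Plus 2.0 GeneChip. The authors deposited MAS5 signal intensities on a linear scale, scaled so that the 2%-trimmed mean of each array was 500. Such scaling fixes each array's mean and cannot show a change in total RNA. Signals were taken to log2 with no offset and modelled by group alone in limma (version 3.58.1, under R 4.3.3) with lmFit and a trended eBayes, giving two-sided p-values adjusted by Benjamini-Hochberg over 33818 probe sets with a signal of at least 100 on at least 2 arrays. With so few arrays precision is limited. The 54675 probe sets comprised 62 controls (left out), 41091 with 1 symbol, 1801 with more than 1 and 11721 without an entry in the annotation. The fit was tested on simulated data. The members and gene lists were chosen with earlier results of these data known. Named were all member probe sets, PTP4A1, up to 4 genes a list with the smallest adjusted p and any called gene, and the 5 genes nearest CRABP2. Alternatives were other filters, normalizations, tests, weights, a replicate block and leaving out each array. Promoters were RefSeq windows of GRCh38.p14.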

Additional observations from a re-analysis of the deposited data

How the results depend on the processing

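The number of all probe sets called, 65 in the limma fit, was 9 without the intensity trend, 0 by the methods' t-test (2905 at an unadjusted p under 0.05, and also 0 at the methods' false discovery threshold, over the probe sets tested here and not those of the methods' own filter on present calls, which was not used here), 275 with array weights and 448 with the replicate number as a block, and it ran from 11 to 253 when 1 array was left out, with the highest count without vector replicate 3. The labels do not say that replicates of the same number were paired, so the replicate block is not read as a pairing. Correlations of same-numbered deviations from the group means were 0.064 and -0.059. With 2 PRL-1 arrays these deviations mirror each other, so the correlations cannot decide whether cultures were paired. The member probe sets called, 2 in the limma fit, were 1 with no filter on low signals (CRABP2), 1 with median centring (CRABP2), 0 without the trend, 0 by the methods' t-test and 0 to 2 with 1 array left out. The lowest and highest log2 difference with 1 array left out were -0.86 and -0.71 for FABP5 and 1.60 and 1.94 for CRABP2. The pathway probe sets called were 0 in each of these fits. Of 137 alternative values of member differences 124 kept their sign, 8 moved by more than the spread between replicates, and 0 turned a called value round. Signals under 100 are close to background and their differences are loosely set.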

Other observations

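The direct repeat spaced by 5 bases was in promoters of 29 genes, of which 15 were in the annotation used and 7 were measured. This list was made from sequence after the arrays had been seen and holds the members RARB and CYP26A1. It is given as a description, and nothing is read from its direction. None of the 7 was called. Their log2 differences (PRL-1 minus vector) had a median of -0.19, with 1 above 0 and 6 below, while 44.8% of all measured genes lay above 0. HROB, a homologous recombination factor, was at the low end with -0.57 and an adjusted p of 0.365 in the limma fit. HROB read 281.9 and 256.5 on the arrays labelled PRL-1, against 426.3, 356.4 and 418.7 on the vector arrays. PANK2, a pantothenate kinase with the element in 2 promoters, was at the high end with 0.06. The other 5 were RARB, CYP26A1, ATXN1L, PHF8 and CFLAR, and of the 7 the groups were apart in HROB and PHF8, a share like the 28.9% over all tested probe sets.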
